A study of Mus musculus with 18 samples.

Results

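Arterial endothelial cells of the adult mouse bone marrow (BM) were taken here as the cells of the adult stromal library that carried at least 2 UMIs (unique molecular identifiers, each standing for 1 captured transcript) summed over Cdh5 and Pecam1, and more UMIs of Sox17, Gja4, Gja5 and Bmx together than of Stab1, Stab2 and Flt4 together. Of the 6267 adult stromal cells, 663 passed the Cdh5 and Pecam1 gate, and 220 of these met the arterial rule. That is 33.2% of the gated cells (95% exact binomial interval 29.6 to 36.9%) and 3.51% of the adult stroma, out of 56201 cells in the whole series. The remaining 443 gated cells comprised 263 with more sinusoidal than arterial UMIs, 155 with none of the 7 genes and 25 tied at a level above 0. The deposited cluster code AECs was carried by 198 of the 220 cells, the code SECs by 6, and 16 cells carried other stromal codes. The label fitted unevenly: 80 of the 220 cells met the rule through Sox17 alone, so all 220 are called arterial-ranked cells below.

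Arteries and arterioles bring oxygenated blood into the marrow and branch towards the bone surface, where they open into the wide, leaky sinusoids. Arterial endothelium depends on VEGF and Notch signals and on SOXF transcription factors of which Sox17 is one, and its cells are coupled through gap junction proteins such as connexin 37 and connexin 40, the products of Gja4 and Gja5. In the adult marrow the vessel wall, together with CXCL12-abundant reticular (CAR) stroma, supplies CXCL12, the chemokine that holds haematopoietic stem cells in place, and KIT ligand, a factor on which they depend.

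The series joined RNA and surface antibody counts of single cells from fetal, newborn and adult mouse BM. The adult stromal library used here came from C57B6/J mice, from bone chips digested with collagenase together with a part of the marrow, sorted as CD45-Ter119- cells to deplete leukocytes and red cells, and read on a 10x Genomics 3′ platform with antibody tags. The cells of several mice were pooled before capture, so the adult stroma was 1 library, no difference below has a replicate check, and the exact Poisson and binomial intervals cover counting error only. The digestion, the sort and the gate on Cdh5 and Pecam1 set which endothelial cells could be seen and in what shares.

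The arterial-ranked cells held a median of 5524.5 UMIs each, with a lowest of 962 and a highest of 40837. The other gated cells held a median of 6364 and the 5604 cells outside the gate 12395. Each group's UMIs were summed and are given as CPM (UMIs scaled to a group total of 1e+06), from 1748977 UMIs in the arterial-ranked cells, 3997657 in the other gated cells and 86122117 outside the gate. Between 0 and 27 cell barcodes were shared with any other library of the series. The G1 phase was the deposited call for 218 of the 220 cells. A doublet caller run here marked 1 of the 6267 cells and none of the 220, too few to count as a working call, so doublets rest on the authors' removal of the cells richest in genes and UMIs.

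The 4 arterial and 3 sinusoidal genes of the rule differ between the groups by construction and are given as a description. Sox17 was at 329 CPM in the arterial-ranked cells, 31 in the other gated cells and 0.116 outside the gate. Gja4 was at 397, 4.75 and 5.12 CPM in the same order. Bmx, a tyrosine kinase of arterial endothelium, was at 48.6 CPM in the arterial-ranked and 1.75 in the other gated cells, and Gja5 at 55.5 and 0.75. By cell, Sox17 UMIs were present in 197 of the 220, Gja4 in 129, Bmx in 46 and Gja5 in 37. Only 13 cells held all 4 genes and 96 held 1 of them. As a check on free RNA, the CAR cells (deposited code CARs, 359 cells, median 7185 UMIs against 5524.5) had Sox17 in none, Gja4 in 0.279% and Bmx in 5.29% of cells. The Bmx level in CAR cells was 7.00 CPM, above that of the other gated endothelial cells, so a Bmx UMI taken by itself did not mark an arterial cell.

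The margin of the rule was narrow for many cells. The arterial sum led by 1 UMI in 56 of the 220 cells and by 10 or more in 40, while 158 cells held none of the 3 sinusoidal genes. Just inside the threshold, the 56 cells with a lead of 1 UMI had a summed level of 14205 CPM over the arterial genes listed below and 49.6 CPM of Sema3g. Just outside it lay the tied cells, of which the 155 tied at 0 had 24937 and 8.94 CPM. A step further out, the 66 cells in which the sinusoidal sum led by 1 UMI had 14029 and 17.9 CPM. In the same order, Fbln5 was at 56.7, 95.1 and 31.3 CPM and Efnb2 at 137, 47.1 and 101. Mgp was at 18195 CPM in the cells tied at 0 and 3921 in those with an arterial lead of 1 UMI. Of the 155 cells tied at 0, 100 carried the code AECs and 3 the code SECs. The rest carried other stromal codes, F11 in 33 of them. Those 100 AECs cells had an arterial sum of 11448 CPM, below that of the cells with a lead of 1 UMI.

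Each rule gene could be read in cells chosen without it. When Sox17 was dropped from the rule and the cells were chosen again with Gja4, Gja5 and Bmx, Sox17 was 4.56-fold higher in the chosen than in the remaining gated cells (interval 3.92 to 5.30). In the same way Gja4 was 11.2-fold higher (9.30 to 13.6), Bmx 11.9-fold (6.80 to 22.3) and Gja5 55.2-fold (20.9 to 207). The Gja5 ratio rested on 4 UMIs in the remaining cells, and was 22.1 (3.20 to 949) with each cell thinned to 1000 UMIs. The 4 genes thus occurred in the same cells more than in the rest of the gate, in cells that also share a library and a depth.

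Promoter sequence is shown for 3 genes that carry the arterial description, the rule genes Gja4 and Bmx and the vasoconstrictor gene Edn1, as the 250 bases before the RefSeq start, from the RefSeq table of build GRCm38.p6. They were searched on both strands for the core bound by RBPJ, the DNA-binding partner of Notch, spelled TGGGAA, and for the core bound by SOX factors, spelled ATTGT. Matches could overlap at their end letters, but none of those marked below do. Capitals mark each match, written as it reads on the gene's strand, so that ACAAT is the SOX core on the opposite strand.
Gja4 (chr4:127314040-127314289, minus strand): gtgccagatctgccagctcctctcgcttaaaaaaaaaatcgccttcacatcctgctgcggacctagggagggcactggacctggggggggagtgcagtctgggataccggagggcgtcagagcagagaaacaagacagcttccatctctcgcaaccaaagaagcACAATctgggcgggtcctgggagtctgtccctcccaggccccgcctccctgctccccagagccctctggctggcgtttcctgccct
Bmx (chrX:164258194-164258443, minus strand): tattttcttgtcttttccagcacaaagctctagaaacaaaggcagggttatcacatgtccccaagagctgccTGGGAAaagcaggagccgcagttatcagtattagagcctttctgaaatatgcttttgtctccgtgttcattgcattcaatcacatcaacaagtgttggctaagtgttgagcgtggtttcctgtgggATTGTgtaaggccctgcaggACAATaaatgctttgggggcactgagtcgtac
Edn1 (chr13:42301226-42301475, plus strand): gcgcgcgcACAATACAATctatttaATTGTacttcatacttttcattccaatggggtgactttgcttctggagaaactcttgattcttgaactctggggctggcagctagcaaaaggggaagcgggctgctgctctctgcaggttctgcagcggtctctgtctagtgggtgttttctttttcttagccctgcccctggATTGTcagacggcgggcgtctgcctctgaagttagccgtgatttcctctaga
The Gja4 window held 1 SOX core, the Bmx window 1 RBPJ core and 2 SOX cores, and the Edn1 window 4 SOX cores. The windows shown are thus all ones with a match. Those of Gja5, Sema3g, Efnb2, Vegfc, Gkn3, Jag2, Mecom and Unc5b held neither, that of Jag1 held 1 SOX core and one of Fbln5 held 1 RBPJ core. Of all 32851 promoters, 7094 (21.6%) held the RBPJ core and 9086 (27.7%) the SOX core. Of the 27 promoters listed for 23 of the arterial identity genes described below, 4 (14.8%) held the RBPJ core and 5 (18.5%) the SOX core. Of 20 promoters of 15 sinusoidal identity genes, 8 (40%) and 9 (45%) held them. A match describes letters in a short window and is not a bound site.

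Against the other gated cells, the arterial-ranked cells had more Sema3g, Edn1, Vegfc, Fbln5, Igfbp3, Stmn2, Jag2, Hey1, Kitl and Cxcl12 and less Mrc1, Tfpi, Adamts5, F8 and Selenop. A gene was counted as different where its CPM ratio was at least 2 or at most 0.5 and both groups together held at least 50 UMIs. Of 9318 genes tested, 267 (2.87%) were higher and 606 (6.5%) lower in the arterial-ranked cells. Of the 29 arterial identity genes outside the rule, 24 were higher, 1 was lower and the median log2 ratio was 1.52, against 0.01 over all genes tested. These genes were listed for being arterial, and the cells were chosen by arterial genes, so this count describes the gate and does not test it.

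Sema3g, a secreted semaphorin made by arterial endothelium, was at 219 CPM in the arterial-ranked cells, 15.0 in the other gated cells and 0.221 outside the gate. Its ratio within the gate was 14.6 (interval 11.1 to 19.5), and its UMIs were spread over 113 of the 220 cells. Edn1, which encodes the vasoconstrictor endothelin 1, was at 191 against 22.0 CPM (ratio 8.68, 6.84 to 11.1). Stmn2, a regulator of microtubules, was at 380 against 60.8 CPM. Ptprr, a tyrosine phosphatase, was at 109 against 14.3 CPM (7.66, 5.67 to 10.5). Igfbp3, a carrier of insulin-like growth factors, was at 505 against 89.8 CPM. Fbln5, an elastic fibre protein, was at 400 against 68.5 CPM (5.83, 5.06 to 6.73). Fbln2 was 3.5-fold and Eln, the elastin gene, 3.23-fold higher, while the matrix list as a whole was mixed, as given below. Gkn3 was nearly absent from the rest of the gate, with 1 UMI against 108, yet those 108 UMIs came from 17 cells.

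**Figure D1:**
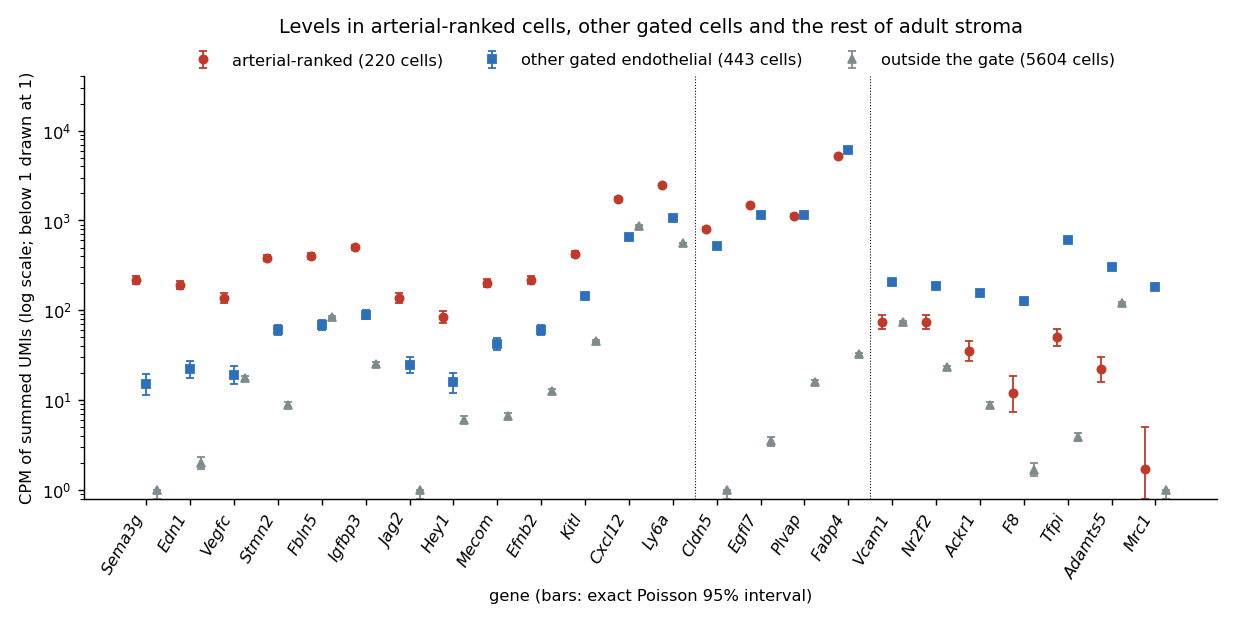
Summed levels of named genes in CPM, on a log axis, for the arterial-ranked, other gated and outside cells, 1 point per group, with exact Poisson intervals as bars and values below 1 drawn at 1. Sema3g, Edn1 and Vegfc stand highest in the arterial-ranked cells, while Mrc1, Tfpi and F8 are lower there than in the other gated cells.

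Lists of signalling genes showed where else the arterial-ranked cells differed. Of 18 Notch pathway genes tested, 6 were higher and none lower (median log2 ratio 0.36). Among the ligands, Jag2 was 5.52-fold higher (4.35 to 7.05), Jag1 2.88-fold and Dll4, the ligand best known from arterial and tip cells, 2.12-fold (1.76 to 2.56). Among the receptors, Notch4 was 2.32-fold higher while Notch1 had a ratio of 1.20, and Notch3, a receptor of the mural cells around vessels, was carried by 13 cells. Among the targets, Hey1, a repressor that fixes arterial fate, was 5.37-fold higher (3.97 to 7.33) and Hes1 had a ratio of 0.761. The VEGF list had 3 of 14 genes higher and none lower. Of these Vegfc, the ligand of VEGF receptor 3, was at 136 against 19 CPM (7.16, 5.51 to 9.39), while Kdr, the main VEGF receptor, was at a ratio of 0.836. In the TGF-beta and BMP list 3 of 18 were higher, with Tgfb2 at 136 against 59.8 CPM and Acvrl1, the receptor of circulating BMP ligands, at a ratio of 2.19, and 2 were lower.

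Of the junction and guidance genes 6 of 24 were higher and 1 was lower. Efnb2, the ephrin that marks arteries from veins, was at 218 against 60 CPM (3.63, 3.08 to 4.28), and Unc5b, a netrin receptor, was 2.74-fold higher. In the list for vessel tone and clotting, 4 of 17 were higher and 3 lower. Ace, the angiotensin-converting enzyme, had a ratio of 3.43, and Nos3, the endothelial nitric oxide synthase, 2.09. In the list of endothelial transcription factors 5 of 29 were higher, with Mecom at a ratio of 4.73 and Prdm16 at 3.33, and 3 were lower, Nr2f2 among them. Klf2, which responds to blood flow, was at 1290 against 694 CPM, below the 2-fold limit. Matrix genes were mixed, with 5 of 27 higher and 7 lower.

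The sinusoidal side of the gate was the mirror of this. Of 24 sinusoidal identity genes outside the rule 18 were lower and none higher (median log2 ratio -1.32). Mrc1, a scavenger receptor, was at 1.72 CPM against 182 (ratio 0.00942, 0.00194 to 0.0276, on 3 UMIs in the arterial-ranked cells). Tfpi, an inhibitor of the clotting cascade, was at 50.3 against 609 CPM, Adamts5, a matrix protease, at 22.3 against 306, and F8, clotting factor VIII, at 12.0 against 126. Selenop, a selenium carrier, was at 372 against 1510 CPM. Of 8 venous genes 5 were lower, among them Nr2f2, the regulator of venous fate, at 73.8 against 188 CPM, and Ackr1, a chemokine-binding receptor of venules, at 35.4 against 156. Of 6 lymphatic genes 5 were lower. Of the 940 UMIs of this list in the other gated cells, 527 lay in those with the code AECs, in 8.33% of these cells. Against the 263 sinusoidal-ranked cells alone, 294 of 8508 genes (3.46%) were higher and 494 (5.81%) lower. With the deposited codes added to the rule, AECs that ranked arterial against SECs that ranked sinusoidal, 443 of 7528 genes (5.88%) were higher and 670 (8.9%) lower. Genes shared by all endothelium stood closer together, with 3 of 22 pan-endothelial genes higher and none lower. Emcn had a ratio of 0.88. Plvap, the diaphragm protein of fenestrated vessels, was at 1126 against 1154 CPM. Its UMIs lay in 116 of the 220 arterial-ranked cells and were uneven among their sub-clusters, as given below, so these close sums are averages.

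Haematopoietic niche factors divided. Of 17 tested, 6 were higher and 5 lower in the arterial-ranked cells. Cxcl12 was at 1739 CPM in the arterial-ranked cells, 660 in the other gated cells and 878 outside the gate (ratio within the gate 2.63, 2.50 to 2.78). Kitl was at 424, 144 and 45.7 CPM (2.94, 2.64 to 3.29). CAR cells exceeded both, with 20241.5 CPM of Cxcl12 and 1005 of Kitl. Cxcl12 UMIs were found in 99.7% of CAR cells and 89.5% of arterial-ranked cells. Vcam1, an adhesion molecule for haematopoietic cells, was lower, at 74.9 against 204 CPM, and Il6st, the shared receptor chain of the IL-6 family, had a ratio of 0.471. Of 13 chemokine genes 3 were higher and 6 lower. The higher ones were Cxcl12, its receptor Cxcr4 at 34.9 against 11.3 CPM and the leukocyte attractant Cx3cl1 at 37.7 against 9.01.

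The difference in Cxcl12 and Kitl was large against the sinusoidal-ranked cells and small against the rest of the code AECs. Gated cells of other codes were part of the comparison too, and ratios without them are given below. Among the gated cells of that code, 198 were arterial-ranked and 192 were not. Cxcl12 was at 2064 CPM in the first and 1774 in the second (ratio 1.16), and Kitl at 490 and 439 (1.12). The 100 gated AECs cells with none of the 7 rule genes had 2614 CPM of Cxcl12 and 603 of Kitl, and the 263 sinusoidal-ranked cells 525 and 110. Within the code, 161 of 6403 genes were higher (2.51%) and 96 lower (1.5%). Arterial genes still differed there, with 17 of 29 higher and none lower. Of 18 capillary genes, none was higher and 4 were lower within the code, whereas 12 were higher and none lower in arterial-ranked AECs against sinusoidal-ranked SECs. Sema3g was at 256 against 33.3 CPM (7.66), Fbln5 had a ratio of 8.92, Vegfc 5.62 and Hey1 2.61. Most genes of the venous and sinusoidal description were not lower within the code. Of 19 sinusoidal identity genes 2 were lower, of 8 venous genes 1 was lower, and none of either list was higher. Tfpi was at a ratio of 1.03 (0.718 to 1.48) and Ackr1 at 1.15 (0.745 to 1.78), both with intervals that span 1, and Vcam1 was at 1.92 (1.38 to 2.72).

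Interferon and antigen presentation genes stood higher in the arterial-ranked cells than in the whole of the other gated cells, and lay close to the other AECs cells. Of 16 tested, 6 passed the 2-fold limit and none was lower (median log2 ratio 0.67). Ifit1 had a ratio of 3.12, Irf7, the regulator of interferon genes, 2.79, Ifit3 2.69 and Isg15, a ubiquitin-like modifier, 2.05. Outside the list, the interferon-induced Ifi27l2a had a ratio of 5.17. Within the code AECs, 1 of 16 was higher and none lower (median log2 ratio 0.26). The summed level of the list of 20 genes was 10949 CPM in the arterial-ranked cells, 11140 in the other gated AECs cells and 15433 in CAR cells. The class I genes H2-K1 and H2-D1 lay at 1.59 and 1.62, below the limit. Of 16 immediate early genes, which rise within minutes of tissue handling, none passed in either direction (median log2 ratio 0.16), and Fos had a ratio of 1.07. Of 13 cell cycle genes 7 were lower, with Top2a, a topoisomerase of dividing cells, at 6.86 against 29.0 CPM. Within the code AECs, 1 of 5 was higher and none lower. The summed cell cycle level was 324 CPM in the arterial-ranked cells, 542.6 in all other gated cells and 267 in the other gated AECs cells, so the low level was shared with the latter.

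Some differences rested on gated cells with other stromal codes, which were 16 of the arterial-ranked cells, with a median of 19394 UMIs, and 65 of the other gated cells, with a median of 17243. The summed level of 12 fibroblast and bone genes was 99822 CPM in the 16 and 43700 in the 65. It was 4789 in the 204 cells with the codes AECs or SECs and 67971 outside the gate. The median per cell was 29196.5 CPM in the 16, 42164 in the 65 and 601 in the 204. By the median, the 16 thus did not exceed the 65. The summed smooth muscle and pericyte level was 4656 CPM in the 16 and 543 in the 204. Bglap, the osteocalcin gene of osteoblasts, had a ratio of 135 in all gated cells, but 99.6% of its UMIs lay in those 16 cells and 4466 of 5021 in 1 cell. The comparison was therefore repeated on the 204 arterial-ranked and 378 other gated cells with the codes AECs or SECs, a choice made after seeing the data. There Bglap had a ratio of 0.555, Acta2, the smooth muscle actin, moved from 3.20 to 0.366, and Mgp, a calcification inhibitor, from 0.488 to 1.20, with both the 16 and the 65 cells left out. Depth was close in that comparison, with medians of 5331.5 and 5502.5 UMIs.

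With those codes alone, 220 of 8415 genes were higher (2.61%) and 497 lower (5.91%), and 165 of the higher and 342 of the lower genes were shared with the first comparison. Of arterial identity genes 22 of 29 were higher and none lower, of sinusoidal identity genes 19 of 24 were lower, of VEGF genes 3 of 14 were higher and 2 lower, and of interferon and antigen presentation genes 4 of 16 were higher. Sema3g stood at a ratio of 12.1, Fbln5 at 8.55, Vegfc at 7.97, Edn1 at 6.36, Kitl at 2.45 and Cxcl12 at 2.27. Dll4 (1.75), Isg15 (1.68), Nos3 (1.78) and Pdgfb, the ligand that recruits mural cells (1.86), no longer passed the 2-fold limit. Leukocyte RNA was scarce in the 204 cells, with a summed level of 16.1 CPM over 12 leukocyte genes, 5 of them at 0. The fibroblast and bone sum was 11570 CPM in the other gated cells with those codes, against 4789 in the 204. The medians per cell were closer, at 708 and 601 CPM. The part of this sum in the lower genes was not tested.

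**Figure D2:**
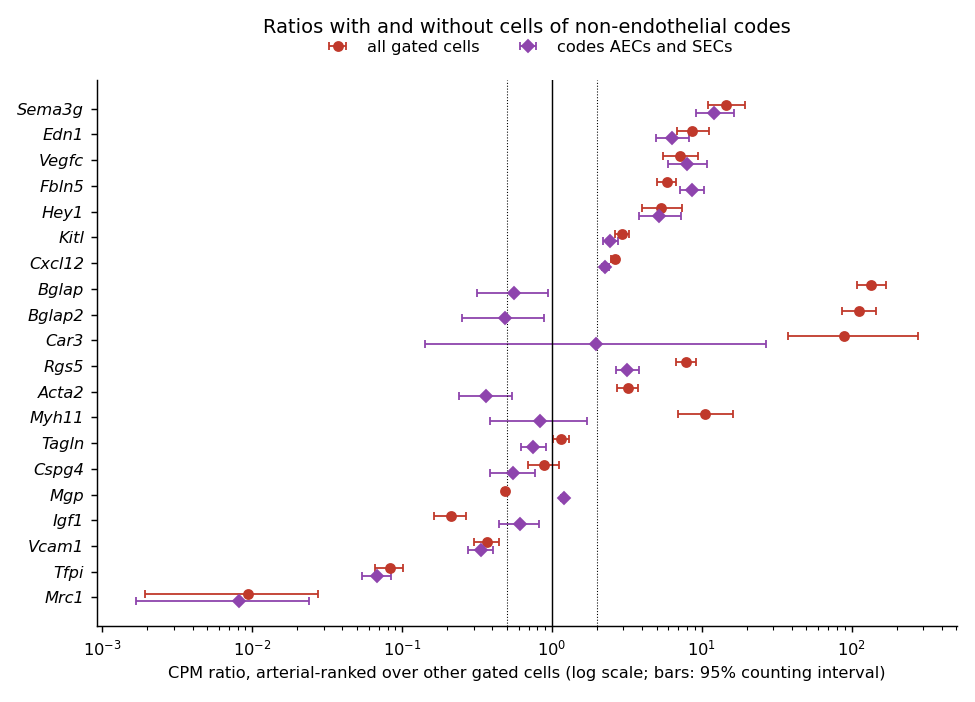
Ratio of CPM values, arterial-ranked over other gated cells, on a log axis, for named genes in all gated cells and in cells with the codes AECs or SECs alone, with intervals from counting error as bars. Sema3g, Vegfc and Fbln5 lie on the same side in both, while Bglap, Acta2 and Mgp cross the line at 1.

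The arterial-ranked cells were not uniform. Among the 204, 127 held a UMI of Gja4, Gja5 or Bmx and 77 met the rule with Sox17 only, at median depths of 5530 and 5118 UMIs. This division was made after seeing the data and uses genes of the rule, so its values are a description. Sema3g was at 363 CPM in the cells with Gja4, Gja5 or Bmx and 40.5 in the Sox17 only cells, Fbln5 at 675 and 65.6, Vegfc at 228 and 29.0, and Hey1 at 144 and 23.2. Capillary genes, several of them lipid-handling, ran the other way. Car4, a membrane carbonic anhydrase of capillaries, was at 4.37 CPM in the cells with Gja4, Gja5 or Bmx and 92.7 in the Sox17 only cells, Lpl, lipoprotein lipase, at 61.2 and 320, and Fabp4, a fatty acid carrier, at 4195 and 9767. Aplnr, the apelin receptor of veins and sprouting vessels, was at 91.8 and 417 CPM. Of 4796 genes, 242 (5.05%) were higher in the cells with Gja4, Gja5 or Bmx and 117 (2.44%) lower. Of the arterial identity list 20 of 29 were higher there and none lower, and of 18 capillary genes 1 was higher and 10 lower. The immediate early sum, which moves with tissue handling, was 12250 CPM in the cells with Gja4, Gja5 or Bmx and 17963 in the Sox17 only cells, the venous sum was 707 and 1249, and the part of either in the other differences was not tested. Cxcl12, at 2054 and 1845 CPM, and Kitl, at 494 and 444, were close in both.

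On the arterial and capillary sums, the Sox17 only cells lay between the cells with Gja4, Gja5 or Bmx and the AECs cells without rule genes. Other lists went either way. The VEGF sum had this order, at 3530, 3797 and 5139 CPM, and the venous sum did not, at 707, 1249 and 972. The summed arterial identity level was 20963 CPM in the cells with Gja4, Gja5 or Bmx, 12726 in the Sox17 only cells, 11448 in the AECs cells without rule genes and 8661 in the 177 sinusoidal-ranked SECs cells. The summed capillary level was 15280, 24798, 40207 and 10888 CPM in the same order. The sinusoidal identity sum was 17788 CPM in the SECs cells and between 5421 and 5558 in the other groups. The AECs cells without rule genes had a median of 3017 UMIs, below the other groups, and such sums weight abundant genes most. The arterial sum did not separate endothelium from other stroma, with 16898 CPM outside the gate and 28079 in CAR cells, so it orders these endothelial groups only. By Sema3g, Fbln5, Vegfc and Hey1, given above, the label of arterial cells fitted the cells with Gja4, Gja5 or Bmx more closely than the Sox17 only cells.

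**Figure D3:**
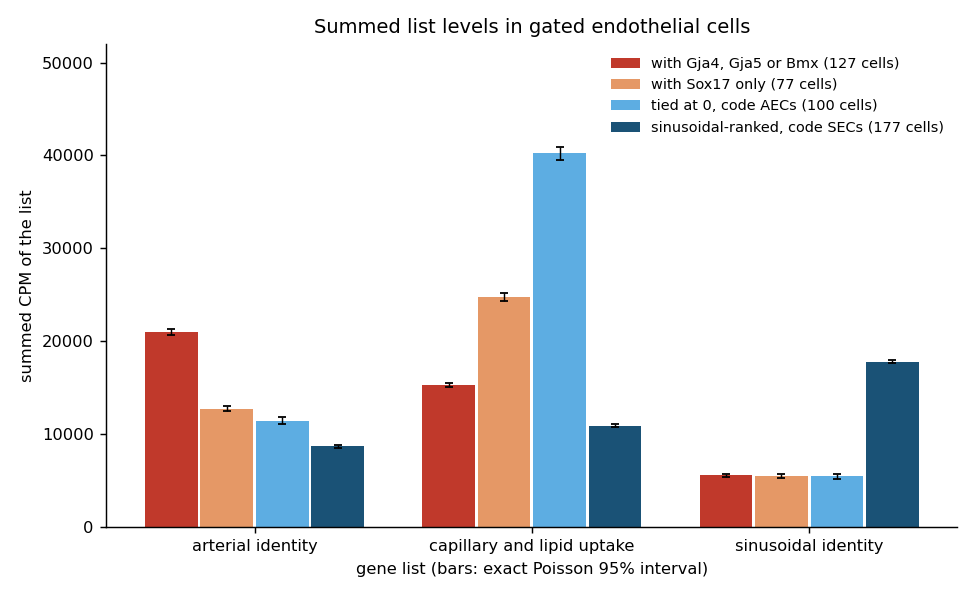
Summed level of the arterial, capillary and sinusoidal gene lists, in CPM, in 4 groups of endothelial cells. The arterial sum is highest in the cells with Gja4, Gja5 or Bmx (20963), the capillary sum in the AECs cells without rule genes (40207) and the sinusoidal sum in the SECs cells (17788).

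Clustering the 204 cells on genes other than the rule's gave 4 sub-clusters of 50 to 52 cells. They are left unnamed because, by the short marker lists used here, none had 3 markers of 1 cell type among its 10 leading genes. Sub-cluster 2 came closest, with Gkn3 and Gja5 of the arterial markers (Sox17, Gja4, Bmx, Gja5, Efnb2, Dll4, Hey1, Sema3g, Gkn3, Stmn2, Fbln5, Mgp and Unc5b), and sub-cluster 3 had none of the capillary markers (Fabp4, Gpihbp1, Rgcc, Car4, Cd36 and Btnl9) among its 10 leading genes. Gja4 was found in 90.2% of sub-cluster 2, 86.0% of sub-cluster 4, 36.5% of sub-cluster 1 and 15.7% of sub-cluster 3. Sub-cluster 2 was led by Gkn3, Alpl, Gja5 and Edn1, with an arterial identity sum of 27602 CPM, and its Plvap level was 91.2 CPM. Sub-cluster 4 had 2619 CPM of Plvap and was led by Irx3, Fcer1g and Sox11, found in 50, 40 and 56% of its cells, once Penk, from 2% of its cells, is set aside, with 959 CPM of Gja4 and 2972 of Cxcl12. The Gja4-rich cells therefore came in a group with little and a group with much of the fenestral diaphragm gene. Sub-cluster 3 was led by Timp4, Car8, Aqp7 and Lpl, with 18337 CPM of Fabp4, and of the 4 sub-clusters it had the highest levels of Fabp4, Gpihbp1 (1864 CPM), Rgcc (1271), Cd36 (1774) and Car4 (188). Sub-cluster 1 was led by Angptl7 and Smoc2, each in 9.62% of its cells, and Selp, in 23.1%. Its 10 leading genes also held Dcn, Fmod, Cilp2 and Myoc, of which only Dcn was on the bone and fibroblast marker list. The venule gene Ackr1 was among them too, in 17.3% of the cells of sub-cluster 1. Over all arterial-ranked cells, Ackr1 UMIs lay in 11 cells. The venous sum was 1239 CPM in sub-cluster 1 and 460 to 1207 in the others. Sub-cluster 1 was set apart by depth, with a median of 9855.5 UMIs, and by a fibroblast and bone sum of 10830 CPM against 473 to 925 in the others.

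To compare cells of unequal depth, each cell was thinned to 1000 UMIs, which left out 1 arterial-ranked, 7 other gated and 25 outside cells. Sema3g then remained in 17.4% of arterial-ranked, 2.29% of other gated and 0.0358% of outside cells. Cxcl12 remained in 63.9, 33.0 and 15.7%. Before thinning the shares in arterial-ranked cells were 51.4% for Sema3g and 89.5% for Cxcl12. At equal depth the share of cells with a UMI of either gene was thus highest in the arterial-ranked cells of these 3 groups. CAR cells and the AECs cells without rule genes, which had higher summed Cxcl12 levels, were not thinned separately. Cxcl12 was in fewer cells outside the gate than in the other gated cells, although its summed level there was higher.

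Against the 5604 cells outside the gate, 2347 of 13908 genes (16.9%) were higher and 2794 (20.1%) lower, so a count over a list starts from a high background. All 22 pan-endothelial genes were higher, with a median log2 ratio of 7.48. Cldn5, the tight junction claudin of endothelium, was at 804 CPM against 0.441. Of the arterial identity list 23 of 29 were higher and 3 lower, and of 20 interferon and antigen presentation genes 17 were higher and none lower (median log2 ratio 2.44). Against the CAR cells alone, 3 of 16 interferon and antigen presentation genes were higher and 3 lower. Over all genes tested in that comparison, 1119 of 8960 were higher and 1191 lower. Ly6a, which encodes the stem cell antigen Sca-1, was at 2492 CPM in the arterial-ranked cells, 1066 in the other gated cells and 563 outside. The other gated cells with the code AECs had 2343 CPM of Ly6a, and those of them without rule genes 3080, so the high level was shared with these cells.

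Antibody counts give a readout that the rule did not use. The CD31 antibody, against the product of Pecam1, had a median count of 183.5 per cell in the arterial-ranked cells, 96 in the other gated cells and 4 outside. A cell was called positive where its centred log ratio, taken per antibody over the cells of the library, was above 1. CD31 was positive in 218 of 220 arterial-ranked cells (99.1%, 96.8 to 99.9%), 88.9% of the other gated cells and 11.1% outside. The sinusoidal-ranked cells reached 98.5%, and the cells with none of the 7 rule genes 71.6%, although 96 of the 100 such cells with the code AECs were positive. Because Pecam1 transcripts were in the gate, the CD31 values within it are partly set by the choice of cells.

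Sca-1 was positive in 57.7% of the arterial-ranked cells (50.9 to 64.3%) and 48.5% of the other gated cells (43.8 to 53.3%). These intervals overlapped, which by itself does not settle whether the shares differed. Among the other gated cells with the code AECs it was positive in 62.5% (55.2 to 69.4%). The median count was 59.5 against 47. The median share of all antibody counts in a cell was 24% and 31.6% for Sca-1 and 61.9% and 50.5% for CD31, and since such shares sum to a whole, the Sca-1 share is no separate check of the Sca-1 level. Among the 204 cells, Sca-1 was positive in 56 of 77 Sox17 only cells (72.7%) and 59 of 127 cells with Gja4, Gja5 or Bmx (46.5%). Of the other gated cells, it was positive in 68 of the 100 AECs cells without rule genes and in 39.5% of the sinusoidal-ranked SECs cells. Ly6a RNA ran the other way between the Sox17 only cells and the cells with Gja4, Gja5 or Bmx, with 2233 and 3119 CPM. The other antibodies ran with Sca-1 between these cells, so the difference was not particular to Sca-1. In the same order, the median CD31 count was 204 and 171. CD140a, a mesenchymal receptor, was positive in 22.1 and 11.0%, and CD73, an ectonucleotidase, in 28.6 and 14.2%. Across the adult stroma, CD140a was positive in 16.8% of the arterial-ranked, 14.0% of the other gated and 19.1% of the outside cells. CD73 was positive in 22.3, 27.1 and 25.1%. The median CD140a count was 4 in each of these groups, so its positive call did not set them apart. CAR cells were CD140a positive in 3.90%, with 217 CPM of Pdgfra, which encodes it, against 15.4 in the arterial-ranked cells.

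**Figure D4:**
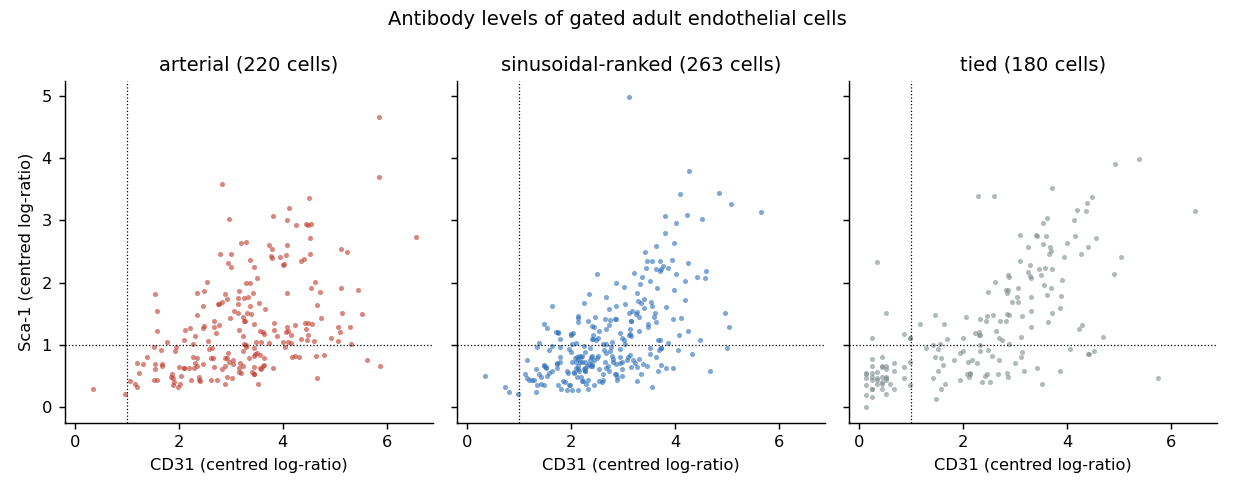
Sca-1 against CD31 antibody level of each gated cell, as centred log ratios, in 220 arterial-ranked, 263 sinusoidal-ranked and 180 tied cells, with dotted lines at the positive level of 1. All but 2 of the arterial-ranked cells lie to the right of the CD31 line and 57.7% above the Sca-1 line, and the cells to the left of the CD31 line are mostly tied cells.

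The same rule was applied to the stromal libraries of the earlier stages. It found 24 cells at E16.5, 38 at E18.5 and 99 at P0, against 220 in the adult. As a share of the gated cells these were 27.9% (18.8 to 38.6%), 33.9%, 38.8% and 33.2%. The gated cells themselves were 1.05, 1.69, 1.81 and 10.6% of the stroma, and stage and library cannot be told apart in any of these values. The arterial-ranked cells had median depths of 13106, 11318, 11126 and 5524.5 UMIs.

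In the order E16.5, E18.5, P0 and adult, Sox17 was at 202, 350, 280 and 329 CPM in the arterial-ranked cells and Gja4 at 225, 365, 231 and 397. Sema3g was at 23.1, 86.8, 73.0 and 219 CPM. The levels of these rule genes, by which the cells were chosen, moved by less than 2-fold, while Sema3g was highest in the adult. H19, Dlk1 and Mest, which are imprinted and were chosen after their values were seen, were lower in the adult, as they were in the other gated cells and outside the gate. H19, a non-coding RNA of fetal tissues, was at 1718, 3113, 2578 and 28.6 CPM. Dlk1, a non-canonical Notch ligand, was at 635, 625, 620 and 3.43 CPM, and Mest at 1126, 1335, 974 and 13.7.

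Ly6a, H2-K1 and Ly6c1 were highest in the adult. Ly6a was at 23.1, 245, 221 and 2492 CPM and the class I gene H2-K1 at 23.1, 97.7, 97.9 and 1110. Ly6c1, a capillary and arterial surface antigen, was at 86.6, 339, 497 and 2680 CPM. The adult level was the highest outside the arterial-ranked cells too, with Ly6a at 24.3, 85.1, 89.2 and 1066 CPM in the other gated cells and 4.98, 18.5, 36.6 and 563 outside the gate. Among niche factors, Kitl was at 199, 321, 334 and 424 CPM, and Cxcl12 at 80.8, 1737, 1063 and 1739, so the low Cxcl12 value was that of the 24 cells at E16.5. Top2a was at 173, 65.1, 72.2 and 6.86 CPM, and the deposited call was G1 for 50, 84.2, 88.9 and 99.1% of the cells.

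**Figure D5:**
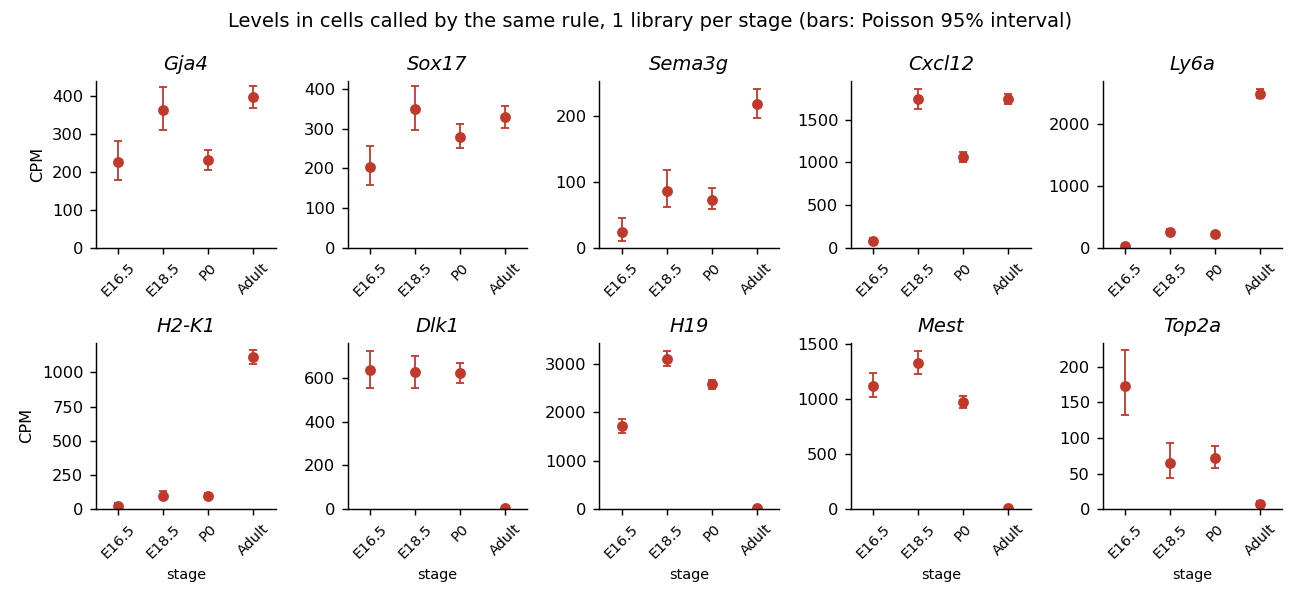
Levels of 10 genes in the arterial-ranked cells of each stage, in CPM on linear axes from 0, with exact Poisson intervals as bars and 1 library per stage. H19, Dlk1 and Mest are lowest in the adult, and Ly6a, H2-K1 and Sema3g are highest there.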

How the data were processed

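Adult CD45-Ter119- BM cells were profiled by CITE-Seq. Per the labels and the study's methods, the authors aligned reads to mm10 with Cell Ranger 3.1.0 and filtered and clustered cells with Seurat 3.1.5 in R 4.0. They removed cells with extreme gene or UMI numbers, few UMIs or a high mitochondrial share. In the adult stroma the lowest deposited count was 480 UMIs and the highest mitochondrial value 7.497%. The deposited matrices hold raw UMI counts per gene and raw antibody counts per cell. The deposited cell table gives cluster codes, phase calls and the mitochondrial fraction.

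UMIs were summed over cells and scaled to CPM over all 20275 genes. Ratios carry exact binomial intervals and levels exact Poisson intervals at 95%. Shares carry exact (Clopper-Pearson) intervals. With 1 adult stromal library, no p-value was computed. A gene was called at a ratio of at least 2 or at most 0.5, with at least 50 UMIs in both groups together. For shares of cells, each cell was also thinned to 1000 UMIs. Sub-clusters used 1000 variable genes, 15 components and a resolution of 0.5 (scanpy 1.11.5, leidenalg 0.10.2). Other calculations used numpy 2.4.6, scipy 1.17.1 and pandas 2.3.3 in Python 3.11.15. The scripts were tested on simulated data.

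The genes named were the members of the lists, the 15 genes with the largest ratio each way against the other gated cells and the 10 with the largest ratio against the cells outside the gate, with at least 100 CPM and 50 UMIs in the higher group, and the leading genes of the sub-clusters. Mitochondrial, ribosomal protein and sex-linked marker genes were left out of these ranks. The cells, gene lists and comparisons were chosen with earlier results of these data known. Lists share some genes. Applying the stated filter again left 6072 of the 6267 cells and 218 of the 220 arterial-ranked cells. Alternatives changed the gate, the rule, the thresholds, the depth and the cells compared.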

Additional observations from a re-analysis of the deposited data

How the results depend on the processing

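The adult stroma is 1 library of pooled mice, so no replicate could be left out. No paired analysis was possible because the adult stromal cells come from 1 library, and only the E16.5 progenitor groups have a second replicate. The arterial share of the gated cells, 33.2%, was 24.7% when the arterial sum had to lead by 2 UMIs, 26.4% with the rule read after thinning and 58.8% with the code AECs in place of the rule. The count of 267 higher genes was 627 with the code AECs against the other codes, 443 with AECs against SECs, 161 within AECs, 65 after thinning, 125 with at least 200 UMIs, 827 at 1.5-fold and 95 at 3-fold. The count of 606 lower genes was 999 with the code AECs against the other codes, 96 within AECs, 135 after thinning, 993 with at least 20 UMIs, 246 with at least 200, 1235 at 1.5-fold and 271 at 3-fold. Thinning and the floor of 200 UMIs left fewer genes to test, and the floor of 20 UMIs left more. These counts therefore do not share a denominator. Against the cells outside the gate, 1237 genes were higher at 3-fold. Against the sinusoidal-ranked cells 6 capillary genes were higher, and among endothelial codes 4 cell cycle genes were lower. Sox17 left out of the rule was 3.39-fold higher after thinning. The CD31 difference of 10.2 percentage points was 6.36 with a gate of 3 UMIs and 14.9 with AECs against the other codes. Between arterial-ranked and other gated cells with the codes AECs or SECs alone, the CD31 difference was 1.40. The Sca-1 difference of 9.19 was 20.4 with AECs against the other codes. The difference in median share of antibody counts, another quantity, was -7.61 percentage points. Before thinning, 89.5% of cells held Sox17, 58.6% Gja4, 51.4% Sema3g and 89.5% Cxcl12. Of 36 genes followed through 12 alternatives, 33 had passed the 2-fold limit, and only these were checked for a change of side. Of them, 5 moved to the other side of 1 in any: Mgp (1.20 among endothelial codes, 1.15 against sinusoidal-ranked cells, 3.23 within AECs) and, within AECs, Tfpi (1.03), Vcam1 (1.92), Igf1 (2.10) and Ackr1 (1.15). The cause was not tested.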
